A study of Homo sapiens with 5 samples.

Results

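Levels of 10 heat shock genes were described in single-cell libraries of MDA-MB-468 cells, 5 in all. MDA-MB-468 is an established line from a human triple-negative breast cancer. The genes were chosen by symbol: HSPA1A, HSPA1B, HSPA8, DNAJB1, HSPH1, HSPB1, HSP90AA1, HSPD1, HSPE1 and BAG3, which are 10 of the 36601 features counted. The study followed cells given PF0517515, an inhibitor of acetyl-CoA carboxylase (ACC), an enzyme of fatty acid synthesis. One library each came from cells given the inhibitor for 6 h, from cells given it for 72 h, from recovery cells taken after 72 h of it, from untreated cells at 72 h and from untreated cells at 0 h. Dose, vehicle and the length of recovery are not in the labels, and all cells were detached with 0.25% trypsin before loading.

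Each group had 1 library, so the spread between samples is unknown and no test was made. The values describe these libraries only. Parentheses hold exact 95% intervals, which cover counting error and nothing else. Levels are CPM, counts of unique molecular identifiers (UMIs) scaled to the same library total. A gene was called apart between libraries where its CPM differed at least 1.5-fold.

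Heat shock proteins are chaperones: they bind unfolded proteins, help them fold and keep them from clumping. When unfolded proteins accumulate in the cytosol, the transcription factor HSF1 is freed from chaperones, forms trimers and binds heat shock elements, repeats of GAA and its complement TTC in alternating orientation. HSPA1A, HSPA1B, DNAJB1, HSPH1 and BAG3 are known as strongly inducible targets of HSF1, while HSPA8, HSP90AA1, HSPD1 and HSPE1 are made in abundance in growing cells too.

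The promoters show how far the members share such elements. RefSeq windows on GRCh38.p14, from 250 bases before to 50 after each annotated start, were found for all 10 members, 14 windows in all. The motif GAANNTTC stood in a window of 7 of 10 members, against 8.21% of 27305 genes with a window. TTCNNGAA stood in 3 of 10 members, against 9.46% of genes. Both read the same on either strand. The longer motif, GAANNTTC followed directly by NNGAA, was searched on both strands and contains both shorter ones. It stood in HSPA8, HSP90AA1 and HSPD1, against 0.608% of genes. No match was found in the HSPH1, HSPE1 and BAG3 windows, which says only that these letters are not within those windows. A match is a description of the sequence and not a mapped HSF1 site.

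The stretches below carry these differences. They are written 5′ to 3′ on the gene's own strand, in lower case, with matches to any of the motifs in capitals. The first 5 are the 150 bases before a start: HSPA1A at chr6:31815393-31815542 on the plus strand, HSPA1B at chr6:31827588-31827737 on the plus strand, DNAJB1 at chr19:14518398-14518547 on the minus strand, HSPA8 at chr11:123062137-123062286 on the minus strand and HSP90AA1 at chr14:102087045-102087194 on the minus strand. HSPA1A and HSPA1B are shown because their levels moved together. DNAJB1 is shown as the inducible gene with a pair of matches, and HSPA8 and HSP90AA1 as the abundant genes with the longer motif.
HSPA1A: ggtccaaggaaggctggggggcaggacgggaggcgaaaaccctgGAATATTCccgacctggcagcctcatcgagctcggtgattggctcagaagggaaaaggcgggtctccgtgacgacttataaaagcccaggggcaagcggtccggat
HSPA1B: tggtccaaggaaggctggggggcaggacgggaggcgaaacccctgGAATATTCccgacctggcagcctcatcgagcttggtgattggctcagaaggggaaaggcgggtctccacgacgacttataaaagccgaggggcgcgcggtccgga
DNAJB1: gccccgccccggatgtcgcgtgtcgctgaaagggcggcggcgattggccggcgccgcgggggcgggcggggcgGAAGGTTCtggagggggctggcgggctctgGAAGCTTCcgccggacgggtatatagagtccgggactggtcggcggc
HSPA8: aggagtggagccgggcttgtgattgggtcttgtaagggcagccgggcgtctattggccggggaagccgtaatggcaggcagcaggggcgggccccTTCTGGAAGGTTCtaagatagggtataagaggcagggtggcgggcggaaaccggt
HSP90AA1: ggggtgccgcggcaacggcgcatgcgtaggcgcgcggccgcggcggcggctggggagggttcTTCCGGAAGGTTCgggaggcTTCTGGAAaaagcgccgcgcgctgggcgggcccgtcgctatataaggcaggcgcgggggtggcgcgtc

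The HSPA1A and HSPA1B stretches were identical in 141 of 151 aligned columns (93.4%), with the same GAATATTC in both. The next pair is shown because HSPD1 and HSPE1 point away from each other with 105 bases between their starts, and differed in direction in a comparison below. The HSPE1 line is the 105 bases between both starts, at chr2:197500274-197500378 on the plus strand. The HSPD1 line is chr2:197500041-197500090 on the minus strand, positions -250 to -201 from its other annotated start. That stretch lies ahead of the HSPE1 start, just outside the HSPE1 window, which begins at chr2:197500129. The window of the HSPD1 start next to HSPE1 held no match either. The lack of a match for HSPE1 therefore depends on where its window ends.
HSPD1: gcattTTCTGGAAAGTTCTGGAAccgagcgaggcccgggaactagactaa
HSPE1: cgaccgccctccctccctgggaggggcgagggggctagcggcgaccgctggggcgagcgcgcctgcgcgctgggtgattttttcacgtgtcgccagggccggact

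The libraries held 1927 to 3705 kept cells and 85376888 to 114350566 UMIs, with median UMIs per cell between 26540 and 41573. They shared 0 to 7 cell barcodes in pairs. Cells of fewer than 10000 UMIs made up 6.95% of the 72 h inhibitor library and 6.84% of recovery, against 0.632% to 2.12% in the other libraries. The median mitochondrial share of UMIs was 2.55% in recovery and 3.31% at 72 h of inhibitor, against 5.63% to 6.17% in the other libraries. Within each library, HSPA1A in the tercile of cells with the highest mitochondrial share was 0.634 to 0.899 times that in the lowest. This ratio was also below 1 in all 5 libraries for DNAJB1, HSPB1, HSP90AA1 and HSPD1. For HSPA1B, HSPA8, HSPH1, HSPE1 and BAG3 it was above 1 in 1 library each. The part of the mitochondrial difference between libraries in the heat shock levels was not tested. All 9 epithelial and basal markers were detected, with EPCAM at 326.2 to 453.5 CPM. None of the 12 markers of leukocytes, endothelium and fibroblasts reached 10 CPM, and COL1A2 and COL3A1 had no UMI in any library. Together the 10 heat shock genes took 0.44% of UMIs at 6 h of inhibitor, 0.34% at 72 h of inhibitor, 0.522% in recovery, 0.432% at 72 h untreated and 0.564% at 0 h untreated.

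The recovery library stood out in the 5 genes named above as strongly inducible. HSPA1A, HSPA1B, DNAJB1, HSPH1, BAG3 and HSPB1 were each highest there, while HSPA8, HSP90AA1, HSPD1 and HSPE1 were each highest in untreated cells at 0 h. Against 72 h untreated cells, 5 of 10 genes were at least 1.5-fold higher in recovery, beside 11.7% of all 9405 genes measured, and 0 were lower, beside 24.9%. Those 5 are the same genes as the set named inducible. HSP90AA1, the inducible form of HSP90, is not in that set and was 1.35-fold lower, under the 1.5-fold call. Against 72 h of inhibitor, 6 of 10 were higher, beside 14.2% of 8943 genes, and 0 were lower, beside 14.3%. Those 6 were HSPA1A, HSPA1B, DNAJB1, BAG3, HSPB1 and HSPA8, without the inducible HSPH1. The median log2 ratio of the 10 genes was 0.57 against 72 h untreated cells, where all genes had a median of -0.17, and 0.80 against 72 h of inhibitor, where all genes had -0.01. Scaling by the median of ratios left 5 higher and 0 lower against 72 h untreated cells, beside 21.2% and 14.7% of all genes under that scaling. These comparisons share the recovery library, and the members were chosen with earlier results of these data known.

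**Figure D1:**
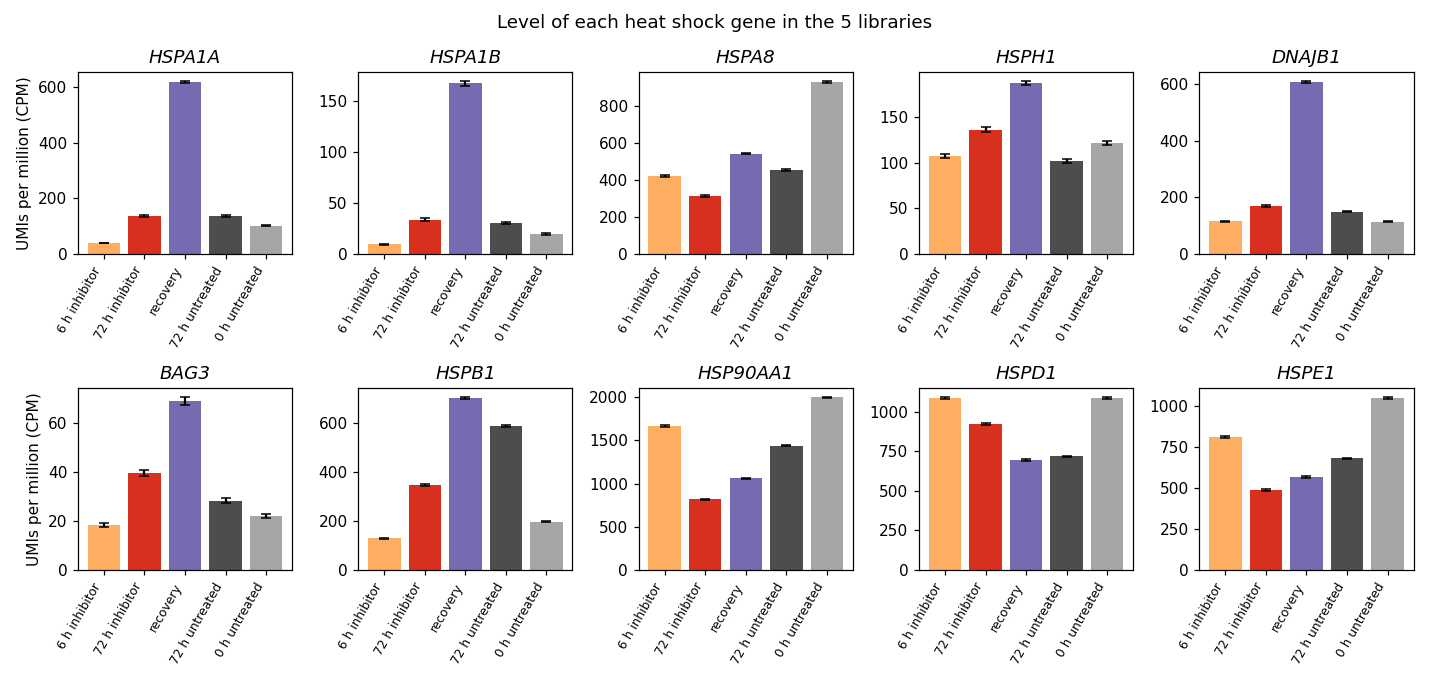
Level of each heat shock gene, in CPM, in the 5 libraries; bars start at 0 and error bars are exact 95% Poisson intervals of counting error. HSPA1A reached 619.9 CPM in recovery and 38.5 to 136.5 in the other libraries, while HSPA8 and HSP90AA1 were highest in untreated cells at 0 h.

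HSPA1A and HSPA1B encode almost the same inducible HSP70, the chaperone that grips unfolded stretches in cycles of ATP use. HSPA1A (ENSG00000204389, chromosome 6, 31815464 to 31817946, plus strand, GENCODE 29) and HSPA1B (ENSG00000204388, chromosome 6, 31827735 to 31830255, plus strand) lie 9789 bases apart. HSPA1A stood at 38.5 CPM at 6 h of inhibitor, 136.5 at 72 h of inhibitor, 619.9 in recovery, 136 at 72 h untreated and 100.3 at 0 h untreated. HSPA1B stood at 9.24, 33.4, 167.7, 29.85 and 19.1 CPM in the same order. Both were lowest at 6 h of inhibitor and highest in recovery, a 16.1-fold span for HSPA1A and an 18.1-fold span for HSPA1B.

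In recovery HSPA1A was 4.56-fold higher (4.47 to 4.65) than in 72 h untreated cells, and HSPA1B was 5.62-fold higher (5.40 to 5.85). Against 72 h of inhibitor the folds were 4.54 (4.45 to 4.63) for HSPA1A and 5.02 (4.82 to 5.22) for HSPA1B. Of the 90-base words in the last 500 bases of HSPA1A, 14.6% also occur in HSPA1B or a transcript overlapping it, so the split of UMIs between the genes is uncertain. Their sum was 787.5 CPM in recovery, against 170 at 72 h of inhibitor and 165.9 in 72 h untreated cells.

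DNAJB1 (ENSG00000132002, chromosome 19, 14514770 to 14529770, minus strand) encodes the HSP40 that brings substrates to HSP70. It stood at 115.4 CPM at 6 h of inhibitor, 169.1 at 72 h of inhibitor, 609.2 in recovery, 149.1 at 72 h untreated and 114.3 at 0 h untreated. Recovery was 4.09-fold higher (4.01 to 4.16) than 72 h untreated cells and 3.60-fold higher (3.54 to 3.67) than 72 h of inhibitor, and the other libraries lay close together. DNAJB1 overlaps TECR on the other strand over 12686 bases, and the strand setting of the counting is not given in the sources used here.

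BAG3 (ENSG00000151929, chromosome 10, 119651370 to 119677819, plus strand) encodes an HSP70 partner that releases its substrates and hands them to autophagy. Its level was 18.6 CPM at 6 h of inhibitor, 39.6 at 72 h of inhibitor, 69.2 in recovery, 28.4 at 72 h untreated and 22.1 at 0 h untreated. In recovery it was 2.44-fold higher (2.33 to 2.55) than in 72 h untreated cells and 1.75-fold higher (1.68 to 1.82) than at 72 h of inhibitor. HSPH1 (ENSG00000120694, chromosome 13, 31134974 to 31162388, minus strand), the HSP110 that swaps the nucleotide on HSP70, varied least of the inducible genes, 1.85-fold over the libraries. It stood at 107, 136.2, 187.5, 101.5 and 121.5 CPM in the same order, and was 1.85-fold higher (1.80 to 1.89) in recovery than in 72 h untreated cells. Against 72 h of inhibitor it was 1.38-fold higher (1.34 to 1.41) in recovery, under the 1.5-fold call.

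HSPB1 (ENSG00000106211, chromosome 7, 76302544 to 76304295, plus strand) encodes the small heat shock protein HSP27, which holds unfolded proteins without using ATP. Its levels were 130.4 CPM at 6 h of inhibitor, 349.6 at 72 h of inhibitor, 704 in recovery, 588.8 at 72 h untreated and 197.5 at 0 h untreated. Between the untreated libraries it was 2.98-fold higher at 72 h than at 0 h, the widest ratio among the 10 genes. With 1 library at each time, time in culture and differences between libraries cannot be told apart. The 72 h inhibitor library was 1.68-fold lower (1.66 to 1.71) than in 72 h untreated cells and above the 0 h level. Recovery stood 1.20-fold above 72 h untreated cells and 2.01-fold (1.99 to 2.04) above 72 h of inhibitor. Of the 90-base words at its 3′ end, 12.4% are shared with the pseudogene HSPB1P1.

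HSPA8 and HSP90AA1, the abundant cytosolic chaperones, were highest at 0 h untreated. HSPA8 (ENSG00000109971, chromosome 11, 123057489 to 123063230, minus strand) encodes HSC70, the HSP70 of unstressed cells. It stood at 420.7 CPM at 6 h of inhibitor, 311.2 at 72 h of inhibitor, 540.7 in recovery, 453 at 72 h untreated and 929.6 at 0 h untreated. The 0 h library was apart from all others, with a level 2.21-fold lower (2.19 to 2.23) at 6 h of inhibitor and 2.05-fold lower at 72 h untreated than at 0 h untreated. In recovery it was 1.74-fold higher (1.71 to 1.76) than at 72 h of inhibitor and 1.19-fold higher than in 72 h untreated cells.

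HSP90AA1 (ENSG00000080824, chromosome 14, 102080738 to 102139699, minus strand) encodes the inducible form of HSP90, which matures kinases and receptors. It stood at 1667 CPM at 6 h of inhibitor, 818.9 at 72 h of inhibitor, 1063.1 in recovery, 1436.8 at 72 h untreated and 1994.8 at 0 h untreated. Recovery was 1.35-fold lower (1.34 to 1.36) than 72 h untreated cells and 1.30-fold higher (1.29 to 1.31) than 72 h of inhibitor. It was also 1.76-fold lower (1.74 to 1.77) at 72 h of inhibitor than in 72 h untreated cells.

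HSPD1 and HSPE1 encode HSP60 and its lid HSP10, the chaperonin that folds proteins inside mitochondria, and are read in opposite directions from the neighbouring starts shown above. HSPD1 (ENSG00000144381, chromosome 2, 197486581 to 197516737, minus strand) stood at 1083.9 CPM at 6 h of inhibitor, 921.8 at 72 h of inhibitor, 693.7 in recovery, 717.9 at 72 h untreated and 1088.4 at 0 h untreated. HSPE1 (ENSG00000115541, chromosome 2, 197499994 to 197503457, plus strand) stood at 809.6, 488.2, 565.1, 678.7 and 1048 CPM in the same order. At 72 h of inhibitor HSPD1 was 1.28-fold higher (1.27 to 1.30) than in 72 h untreated cells and HSPE1 1.39-fold lower (1.37 to 1.41). Neither reached 1.5-fold. They kept opposite directions under the 3 other scalings, with log2 ratios of 0.60 for HSPD1 and -0.24 for HSPE1 by the median of ratios, which takes HSPD1 past 1.5-fold. Set against 0 h untreated cells, both were lower at 72 h of inhibitor, with log2 ratios of -0.24 for HSPD1 and -1.10 for HSPE1. In the annotation HSPE1 lies within HSPD1 on the other strand over 3464 bases, and the strand setting of the counting is not given. At the 3′ end of HSPE1, 32.6% of the 90-base words are shared with its pseudogenes or HSPE1-MOB4. This is a share of sequence words and not of UMIs, so the size of any effect on its level is unknown. For HSPD1 the share was 0%.

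The inhibitor was set against untreated cells of the same time at 72 h. None of the 10 genes was at least 1.5-fold higher at 72 h of inhibitor, beside 7.38% of 9346 genes, and HSPB1 and HSP90AA1 were lower, beside 20%. The median log2 ratio of the members was 0.08 and that of all genes was -0.14. HSPA1A was level, at 1.00-fold (0.979 to 1.03). HSPH1 was 1.34-fold (1.31 to 1.38) and BAG3 1.40-fold higher (1.33 to 1.47). Scaling by the median of ratios shifted all log2 ratios by 0.23, which left 3 genes higher and 0 lower, beside 15.9% and 11.6% of all genes under that scaling.

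An untreated library at 6 h was not analysed here, so the 6 h inhibitor library was set against 0 h untreated cells. The 6 h library had 4 of the 10 genes at least 1.5-fold lower, beside 0.882% of 9075 genes, and 0 were higher, beside 11%. HSPA1A was 2.61-fold lower (2.52 to 2.70), HSPA1B 2.07-fold (1.92 to 2.23), HSPA8 2.21-fold and HSPB1 1.52-fold (1.48 to 1.55). The other 6 members were within 1.30-fold. Under median-of-ratios scaling 4 were lower and 0 higher, beside 2.68% and 5.47% of all genes. HSPA1A fell below both untreated libraries, while HSPA8 at 72 h untreated was already near its 6 h inhibitor level, and in all these 6 h values time and inhibitor cannot be told apart.

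Between the inhibitor libraries, 4 of 10 genes were higher at 72 h than at 6 h, beside 12.1% of 9359 genes, and 2 were lower, beside 25.2%. HSPA1A was 3.55-fold, HSPA1B 3.62-fold, HSPB1 2.68-fold and BAG3 2.13-fold higher at 72 h, while HSP90AA1 was 2.04-fold and HSPE1 1.66-fold lower. Between the untreated libraries, 2 of 10 were higher at 72 h, beside 15.9% of 9303 genes, and 3 were lower, beside 6.2%. Those higher were HSPA1B, at 1.56-fold, and HSPB1, and those lower were HSPA8, HSPD1 at 1.52-fold and HSPE1 at 1.54-fold. By the median of ratios, 72 h against 6 h of inhibitor had 5 higher and 2 lower, beside 16.7% and 19.1% of all genes, and the untreated libraries had 1 higher and 4 lower at 72 h, beside 8.05% and 16.8%.

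The choice of untreated library mattered. Set against 0 h untreated cells, 72 h of inhibitor had 3 of 10 genes higher, beside 19% of 9207 genes, and 3 lower, beside 22%. Recovery set against 0 h untreated cells had 6 higher, beside 22.7% of 9273 genes, and 4 lower, beside 26%. The 4 lower were HSPA8, HSP90AA1, HSPD1 and HSPE1. The 6 h inhibitor library set against 72 h untreated cells had 1 higher, HSPD1, beside 8.56% of 9453 genes, and 4 lower, beside 10.5%.

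**Figure D2:**
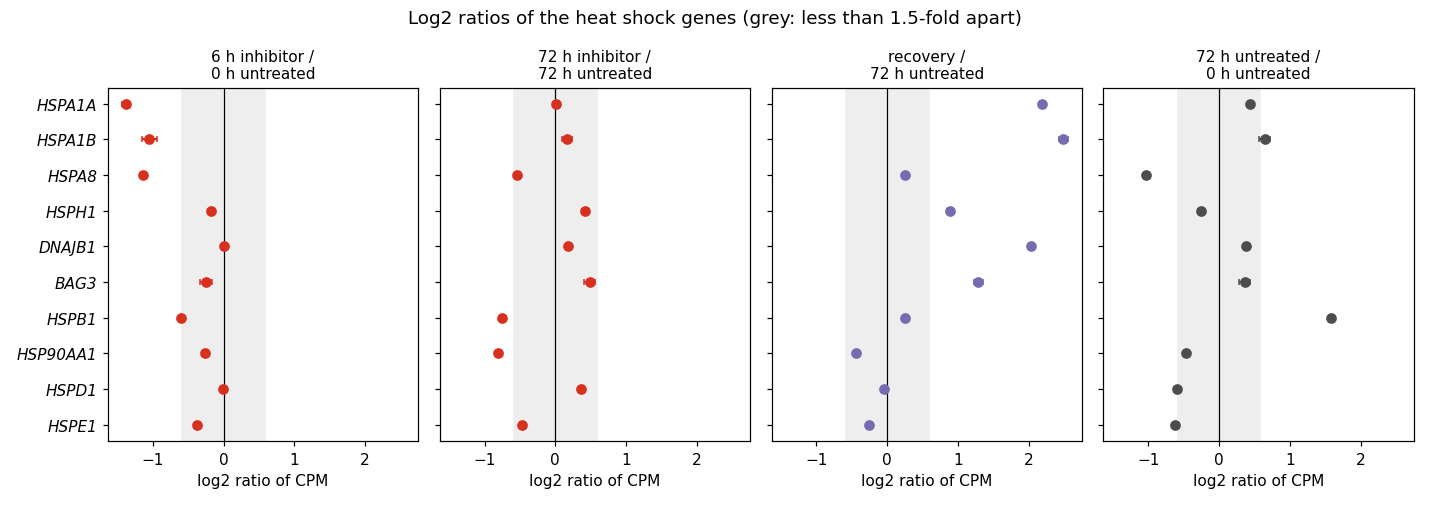
Log2 ratio of CPM for each heat shock gene in 4 comparisons, with exact 95% intervals of counting error; the grey band marks less than 1.5-fold. In recovery against 72 h untreated cells 5 genes lie right of the band, and at 6 h of inhibitor against 0 h untreated cells 4 lie left of it.

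Other chaperone genes were read from lists, also chosen with earlier results of these data known. The first comparison was recovery against 72 h untreated cells, where 11.7% of all genes were at least 1.5-fold higher and 24.9% lower. Of 7 measured other genes linked to HSF1, 4 were at least 1.5-fold higher and 0 lower in recovery than in 72 h untreated cells, with a median log2 ratio of 0.76, beside -0.17 over all genes. DEDD2 was 3.44-fold higher, and ZFAND2A, which encodes a proteasome partner induced by arsenite, was 2.17-fold higher. Of 10 other HSP40 genes, 3 were higher and 0 lower, led by DNAJB4 at 28.9 CPM in recovery against 7.91 in 72 h untreated cells. Of 13 genes for HSP90 and its cochaperones, 0 were higher and 1, FKBP5, was 1.70-fold lower. Of 14 genes of the TRiC chaperonin and prefoldin, 1 was higher and 1 lower. Among 15 other mitochondrial chaperones and proteases 2 were higher and 3 lower, near the shares over all genes.

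The HSP70 gene HSPA6, known in human cells for being nearly silent without stress, lay below the 10 CPM minimum and was singled out after its values were seen. It had 1 UMI at 6 h of inhibitor, 87 at 72 h of inhibitor, 361 in recovery, 8 at 72 h untreated and 4 at 0 h untreated. In CPM it was 41.5-fold higher (20.8 to 96.8) in recovery and 11.96-fold higher (5.81 to 28.6) at 72 h of inhibitor than in 72 h untreated cells. Its UMIs came from 205 of 3537 recovery cells and 65 of 1927 cells at 72 h of inhibitor. Reads of its close copy HSPA7 may be counted with it.

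HSF1 itself did not follow the inducible genes, at 40.6 CPM at 6 h of inhibitor, 39.7 at 72 h of inhibitor, 29.4 in recovery, 33.6 at 72 h untreated and 39.9 at 0 h untreated. At 72 h of inhibitor, the 8 measured HSF1-linked genes had 1 higher and 0 lower against 72 h untreated cells, with a median log2 ratio of 0.08. The HSP40 genes had 2 of 9 at least 1.5-fold higher and 0 lower, beside 7.38% of all genes higher and 20% lower. At any size, 6 of these 9 were lower, beside 5698 of all 9346 genes. Their median log2 ratio was -0.30, beside -0.14 over all genes. At 6 h of inhibitor, DNAJA1, an HSP40 of the cytosol, was 1.70-fold lower than at 0 h untreated, at 140.5 against 238.4 CPM. It was the only 1 of 9 measured HSP40 genes past 1.5-fold, beside 0.882% of all genes at least 1.5-fold lower. Of 13 HSP90 and cochaperone genes 11 were lower, beside 3616 of all 9075 genes, and none was past 1.5-fold. Of 18 ER chaperone genes, which serve the secretory pathway under other factors, 10 were higher and 0 lower in recovery than in 72 h untreated cells, beside 11.7% and 24.9% of all genes. In recovery against 72 h of inhibitor, all 12 immediate early genes and 20 of 22 G2/M genes were at least 1.5-fold higher, beside 14.2% of all genes. Immediate early genes are known to respond to handling as well as to growth signals. Against 72 h untreated cells, 3 of the 12 were higher in recovery and 3 lower, beside 11.7% and 24.9% of all genes. Across recovery cells the summed inducible UMIs correlated with the immediate early sum at 0.25, and in the other libraries at -0.02 to 0.05. The part of handling in the heat shock levels was not tested.

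Single cells showed whether many or few cells carried these levels. Each cell was thinned to 5000 UMIs, so that depth did not set the counts. This left 2996 cells at 6 h of inhibitor, 1868 at 72 h of inhibitor, 3462 in recovery, 2885 at 72 h untreated and 3700 at 0 h untreated. A UMI of HSPA1A was seen in 15.0%, 40.5%, 80.6%, 44.4% and 38.0% of cells in that order, and at full depth in 59.9%, 87.9%, 97.6%, 91.0% and 87.0%. DNAJB1 was seen in 42.1%, 55.1%, 87.6%, 50.8% and 43.4%, and BAG3 in 8.81%, 17.7%, 28.1%, 12.4% and 9.41%. Libraries of 1 cell line hold no cell type that should lack these genes, so the share from free RNA could not be measured. The abundant HSP90AA1, HSPD1 and HSPE1 were seen in 88.9% to 99.8% of cells in every library.

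At 72 h of inhibitor HSPA1A had the same CPM as in 72 h untreated cells, 136.5 against 136, but a different spread over cells. Its Fano factor, the variance of UMIs over their mean, was 3.96 at 72 h of inhibitor, against 1.24 at 72 h untreated. The highest cell held 33 thinned UMIs at 72 h of inhibitor and 7 at 72 h untreated. The 5% of cells with most HSPA1A held 38.7% of its UMIs at 72 h of inhibitor, against 24.5% at 72 h untreated. A UMI was seen in 40.5% (38.3 to 42.8) of cells at 72 h of inhibitor and 44.4% (42.6 to 46.3) at 72 h untreated. These intervals overlap only between 42.6 and 42.8, and the difference was not tested. The equality of CPM holds for sums in which deep cells weigh more: per thinned cell HSPA1A averaged 0.820 UMIs at 72 h of inhibitor and 0.649 at 72 h untreated. Its level in the deepest tercile of cells was 0.634 times that in the shallowest at 72 h of inhibitor, against 1.25 times at 72 h untreated, and the part of depth in the spread was not tested. In recovery the Fano factor was 6.18 and the highest cell held 96.

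The 5 inducible genes are also those called higher in recovery than in 72 h untreated cells. Their sum therefore gives no separate support for higher levels in recovery. The summed UMIs of the 5 inducible genes had a median of 1 per thinned cell at 6 h of inhibitor, 2 at 72 h of inhibitor, 6 in recovery, 2 at 72 h untreated and 2 at 0 h untreated. The 5th percentile was 2 in recovery and 0 in every other library, so most recovery cells were shifted. More than 5 UMIs, the 95th percentile at 0 h untreated, were found in 0.801% (0.514 to 1.19) of cells at 6 h of inhibitor, 9.42% (8.14 to 10.8) at 72 h of inhibitor, 56.8% (55.2 to 58.5) in recovery, 3.71% (3.05 to 4.46) at 72 h untreated and 2.30% (1.84 to 2.83) at 0 h untreated. Because that cutoff came from the 0 h library, its share there is fixed by the choice. At least 10 UMIs were found in 41 cells at 72 h of inhibitor and 984 in recovery, against 2 at 72 h untreated and 2 at 0 h untreated. The 41 cells had a median of 19421 UMIs before thinning, below the 41573 of all kept cells of that library, and the part of this difference in depth was not tested.

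**Figure D3:**
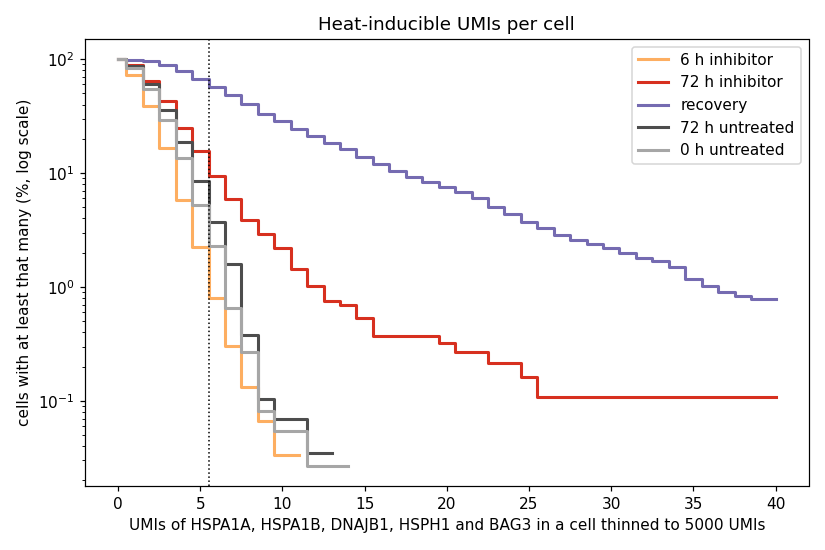
Share of cells, on a log scale, with at least a given number of UMIs of the 5 inducible genes after thinning to 5000 UMIs; each line is a library and the dotted line marks more than 5 UMIs. The recovery line lies above all others, and the 72 h inhibitor line leaves the untreated lines in a tail that reaches 44 UMIs in its highest cell, beyond the axis.

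The cells high in inducible genes also held more of some other members. In recovery the cells above 5 UMIs averaged 4.10 HSPB1 UMIs, against 2.82 in the other recovery cells, and 5.86 against 4.40 HSP90AA1 UMIs. HSPD1 averaged 3.60 against 3.25. At 72 h of inhibitor the same contrast was 2.95 against 1.69 for HSPB1, and 2.25 against 2.41 for HSPE1. G2/M genes averaged 13.9 against 9.01 UMIs in recovery and 19.7 against 9.52 in 72 h untreated cells, and ER chaperones 24.5 against 23.3 in recovery.

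More pairs of members were correlated across cells in recovery than in the other libraries. Not every pair was strongest there: HSP90AA1 with HSPE1 stood at 0.15 in recovery and 0.17 at 6 h of inhibitor. Over 45 pairs of genes, the Pearson correlation across thinned cells was above 0.1 in 29 pairs in recovery, against 5 at 6 h of inhibitor, 9 at 72 h of inhibitor, 7 at 72 h untreated and 6 at 0 h untreated. HSPA1A with HSPA1B reached 0.48 in recovery and 0.29 at 72 h of inhibitor, and HSPA1A with DNAJB1 0.38 in recovery. Cells of a library share its preparation and depth, and sparse counts lower these values, so genes with more UMIs can correlate more. HSPD1 and HSPE1 correlated at 0.10 to 0.14 in every library.

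**Figure D4:**
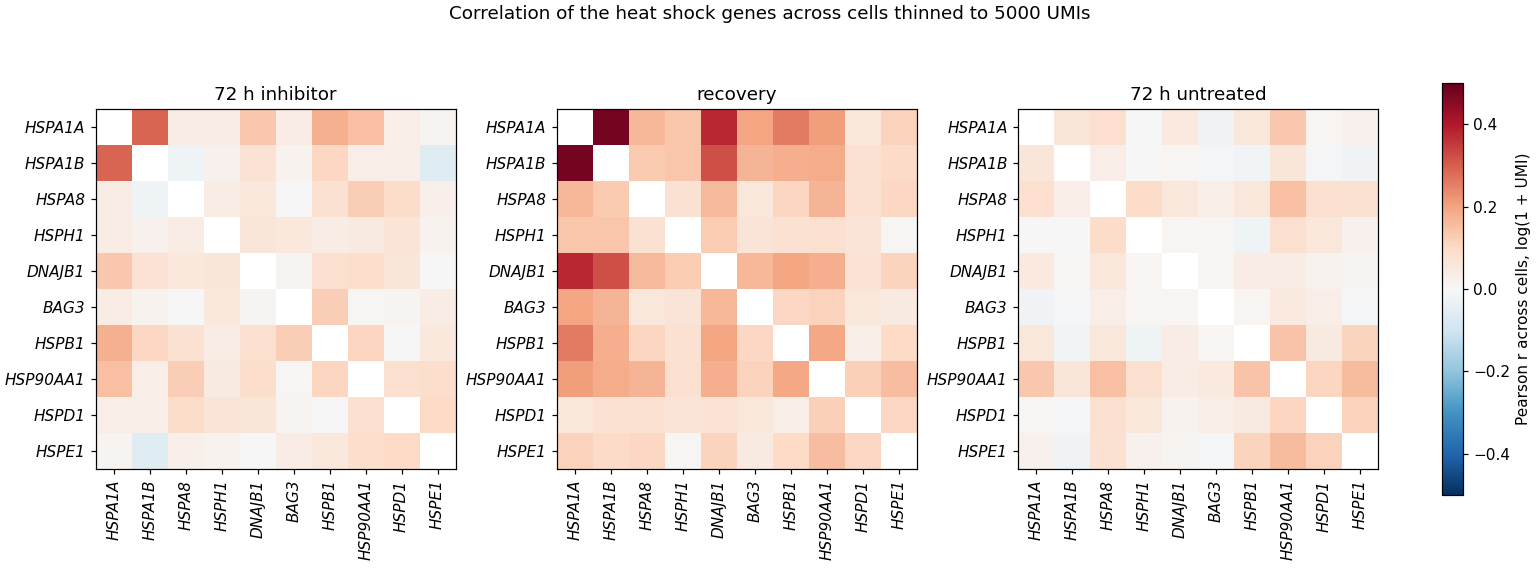
Pearson correlation of each pair of heat shock genes across cells thinned to 5000 UMIs, in the 72 h inhibitor, recovery and 72 h untreated libraries; red is positive, blue negative and the diagonal is left blank. The block of HSPA1A, HSPA1B and DNAJB1 is the strongest in recovery, at up to 0.48.

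The cell cycle moved with several members in every library. The 20% of cells with most G2/M UMIs held HSPA1A at 1.33 to 2.61 times the level of cells low in both cycle lists, and HSPA8 at 1.28 to 1.71 times, in all 5 libraries. The ratio was 0.93 to 1.25 for HSPE1, 0.92 to 1.40 for HSPB1 and 1.02 to 1.27 for HSPD1. HSPA1A in the deepest tercile of cells was 0.634 to 1.57 times that in the shallowest. The part of depth in the cycle ratios was not tested. By the rule for the genes most like the inducible sum across cells, the 10 named were CENPF, UBE2S, CKS2, PTTG1, TOP2A, CCNB1, TPX2, DLGAP5, CDC20 and CALM2, of 7197 genes searched, with median correlations between 0.11 and 0.15.

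Across the 5 libraries, likeness was taken as the root-mean-square difference of centred log2 CPM over 7556 genes. HSPA1A was most like HSPA1B, at 0.17, then TSC22D3, a glucocorticoid-induced gene, at 0.39 and EFNA3 at 0.40. HSPA8 was most like CCNE1, at 0.17, SRSF2 and PNP. HSP90AA1 was most like SNRPF, at 0.03, PTMS and CCDC137, and HSPD1 most like WDR5, IPO5 and PABPN1. HSP90AA1 and HSPE1 differed by 0.12 and HSPD1 and HSPE1 by 0.31. Only 5 points stand behind each value.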

How the data were processed

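The deposited values are UMI counts per gene and barcode, whole numbers that the authors made with Cell Ranger 7.1.0 on GRCh38, per the file headers and the submitters' processing notes. The kit was 10x 3′ version 3.1, with a target of 10000 cells, per the labels' protocols. No source used here gives the annotation release or the intron and strand settings. For this work, cells with at least 1000 genes and at most 20% mitochondrial UMIs were kept, no doublet was removed and the cells were not clustered. Counts were added up within a library and divided by its total to give CPM. Genes at 10 CPM or more in either library of a comparison were measured. Ratios carry exact Clopper-Pearson intervals, conditional on the sum of both counts, and CPM exact Poisson intervals. For values per cell, kept cells of at least 5000 UMIs were thinned at random to 5000 UMIs, which left out 10 cells at 6 h of inhibitor, 59 at 72 h of inhibitor, 75 in recovery, 35 at 72 h untreated and 5 at 0 h untreated. Genes were named by rule: all members, the 3 genes of at least 20 CPM most like each of HSPA1A, HSPA8, HSP90AA1 and HSPD1, the 10 genes most like the inducible sum across cells, and up to 3 of each list with the largest ratios, of which some are printed. Members and the 16 lists were chosen with earlier results of these data known. Promoters came from RefSeq and positions from GENCODE 29. The ratio step was checked on simulated data modelled on the 72 h inhibitor and 72 h untreated libraries. Of 9058 genes, all 200 changed genes were recovered and 0 of 8858 others passed 1.5-fold. The planted changes all lay well past 1.5-fold and only counting error was simulated. Changes near 1.5-fold and the spread between libraries were therefore not checked. Software was Python 3.11.15 with matplotlib 3.10.9, pandas 2.3.3, scipy 1.17.1 and numpy 2.4.6.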

Additional observations from a re-analysis of the deposited data

Results flagged for a closer look

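Of the heat shock genes, 3 stood on opposite sides in the 2 inhibitor comparisons, with counting intervals that did not reach a ratio of 1. HSPA1B had a log2 ratio of 0.16 at 72 h of inhibitor against 72 h untreated, and -1.05 at 6 h of inhibitor against 0 h untreated. For HSPH1 the values were 0.42 and -0.18, and for BAG3 0.48 and -0.25. With 1 library per group the difference between the comparisons was not tested. The untreated libraries compared differ in time, so time and inhibitor cannot be told apart for the 6 h values. Set against 72 h untreated cells instead, the 6 h log2 ratio was -1.69 for HSPA1B, 0.08 for HSPH1 and -0.61 for BAG3.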

How the results depend on the processing

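No paired analysis was possible because each group has 1 library. Alternatives were other cell filters, scalings, depths, cutoffs and the other untreated library. Of 126 alternative counts of members, 111 stayed within 1.5 times the reported one. Of 12 alternative shares of cells high in inducible UMIs, 5 were counted as the same and 7 as moved. At 72 h of inhibitor against 72 h untreated, where 0 genes were higher and 2 lower, median-of-ratios scaling gave 3 higher and 0 lower, beside 15.9% and 11.6% of all genes under it. Trimmed mean of M values gave 2 and 1, beside 14.1% and 12.8%, and leaving mitochondrial and ribosomal protein genes out of the totals 1 higher, beside 11.2%. A 2-fold threshold left 0 lower, beside 7.35%. Against 0 h untreated instead, 3 were higher, and HSPB1 reversed to a log2 ratio of 0.82, against -0.75 in the main comparison. At 6 h of inhibitor against 72 h untreated, 1 was higher. Recovery against 0 h untreated had 4 lower. For 72 h against 6 h of inhibitor, a 2-fold threshold left 1 lower, beside 11.2%. Between the untreated libraries, 1 was higher under median of ratios (8.05% of all genes), trimmed mean (9.74%), after thinning (17.4%) and at 2-fold (5.56%), which also left 1 lower, beside 1.48%. Shares of cells high in inducible UMIs, at 10000 UMIs and with the 90th percentile, were 13.6% and 15.5% at 72 h of inhibitor, 72.5% and 67.1% in recovery, and 6.58% and 8.60% at 72 h untreated, while the 90th percentile gave 2.24% at 6 h of inhibitor. The cause was not tested. The other untreated library moved 15 of 30 ratios over 1.5 times, and no other setting moved any of 60 by that much. Low UMI counts limit HSPA6, and HSPA1B and BAG3 per cell.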
